A study of Mus musculus with 12 samples.

Results

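A set of 9 chemokine receptor genes was followed in responder CD4+ T cells of mice treated with antibodies to PD-L1 and Lag3, namely Ccr6, Ccr2, Ccr4, Ccr8, Ccr9, Cxcr3, Cxcr4, Cxcr5 and Cxcr6. They are 9 of the 56691 mouse genes in the count table. They come from a list of receptor names that was chosen with earlier results of these data known. The 12 mice were Tg4 Nr4a3-Tocky IL-10 GFP animals, which carry a transgenic T cell receptor for a myelin basic protein peptide, a fluorescent timer driven by Nr4a3 and an Il10 reporter. All mice received 4 mg/kg of the [4Y]-MBP peptide, antibody 24 h later, and 0.4 mg/kg of the peptide 30 min after the antibody. Spleens were taken 12 h after the second peptide dose, and CD4+ cells positive for both the Blue and the Red form of the timer were sorted. The 4 groups of 3 mice differed in the antibody given, which was an isotype control, anti-Lag3, anti-PD-L1, or both blocking antibodies together (co-blockade, CB). Per the study's methods, mice of both sexes were typically 6 to 8 weeks old, and the labels give no age per animal. The transgenic receptor gives most CD4+ T cells of such mice the same specificity, which limits them as a model of a mixed repertoire. The comparisons ask which receptor transcripts differ when either pathway, or both, are blocked during re-stimulation.

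Chemokine receptors are G protein-coupled receptors that read gradients of chemokines and steer leukocyte migration through G alpha-i proteins. Cxcr5 draws T cells towards B cell follicles, whereas Cxcr3 responds to chemokines made at sites of type 1 inflammation. Ccr6, whose ligand is Ccl20, is known from Th17 cells, regulatory T cells and B cells, and Ccr9, whose ligand is Ccl25, directs T cells to the small intestine.

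The libraries held 16449370 to 22151025 reads on genes (median 19176439), and levels are given in CPM, reads on a gene scaled to 1 common library size after adjustment by the trimmed mean of M values (TMM). Genes that define CD4+ T cells were present in all libraries, with 10 of 10 listed markers detected and a summed level of 2607 to 3087 CPM. Of these markers, Cd4 and Cd3e were lower in CB than in isotype samples, with log2 fold changes of -0.50 (adjusted p = 0.00918) and -0.39 (adjusted p = 0.0401). Nr4a3 itself lay between 8.48 and 33.1 CPM. Per the study's methods, cells were sorted in batches of 4 with a different CD4 fluorochrome for each antibody group, so fluorochrome and group cannot be told apart, and the labels do not say which mice shared a batch. In sorted bulk samples, fewer cells that express a gene and less RNA per cell cannot be told apart.

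Ccr6 lies on chromosome 17 of GRCm38 (17:8236043-8257141, plus strand), 6 of the 9 genes (Ccr2, Ccr4, Ccr8, Ccr9, Cxcr5 and Cxcr6) lie on chromosome 9, Cxcr4 lies on chromosome 1 and Cxcr3 on the X chromosome. Because the sort selects cells by Nr4a3, a gene induced through the transcription factor NFAT, the 250 bases before annotated starts (RefSeq, GRCm38.p6) were searched for the NFAT core GGAAA and for the AP-1 motif TGANTCA, where N is any base, on both strands. Windows were found for 8 of the 9 genes, all except Cxcr5. The windows of Ccr6, the receptor whose transcript differed most between groups, are shown with those of Ccr4, which holds both motifs, and of Cxcr3, the most abundant receptor transcript, which holds neither. Capitals mark the motif letters on the printed strand, where TTTCC is GGAAA read from the other strand.
Ccr6, upstream start (chr17:8235793-8236042, plus strand): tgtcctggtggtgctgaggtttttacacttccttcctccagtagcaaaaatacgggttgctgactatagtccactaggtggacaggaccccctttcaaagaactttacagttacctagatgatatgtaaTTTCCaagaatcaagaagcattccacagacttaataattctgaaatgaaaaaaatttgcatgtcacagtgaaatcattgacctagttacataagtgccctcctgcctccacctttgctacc
Ccr6, downstream start (chr17:8242276-8242525, plus strand): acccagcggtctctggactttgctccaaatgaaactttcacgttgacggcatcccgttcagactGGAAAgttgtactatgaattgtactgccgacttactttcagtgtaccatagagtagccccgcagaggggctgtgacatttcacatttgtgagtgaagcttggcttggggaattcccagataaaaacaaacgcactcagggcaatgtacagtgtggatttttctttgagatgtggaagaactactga
Ccr4 (chr9:114496545-114496794, minus strand): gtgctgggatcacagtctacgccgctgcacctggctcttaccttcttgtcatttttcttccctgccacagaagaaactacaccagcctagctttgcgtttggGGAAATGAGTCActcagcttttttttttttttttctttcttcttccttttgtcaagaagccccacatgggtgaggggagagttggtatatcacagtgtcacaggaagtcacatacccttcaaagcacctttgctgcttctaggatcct
Cxcr3 (chrX:101734148-101734397, minus strand): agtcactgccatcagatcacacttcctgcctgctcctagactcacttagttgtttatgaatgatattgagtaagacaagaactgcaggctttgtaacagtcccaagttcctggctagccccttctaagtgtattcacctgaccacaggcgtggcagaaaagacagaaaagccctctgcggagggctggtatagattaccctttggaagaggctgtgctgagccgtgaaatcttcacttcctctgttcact
Each Ccr6 window held 1 NFAT core, whose first base stood at position -121 before the upstream start and at position -186 before the downstream start, and no AP-1 motif. In the Ccr4 window the NFAT core at position -148 was followed directly by the AP-1 motif. The core was found 3 times in each of the windows of Ccr2 and Cxcr6, 1 time in that of Cxcr4 and not in those of Ccr8, Ccr9 and Cxcr3. Of the 32851 mouse windows of the same length, 55.6% held the NFAT core and 6.7% the AP-1 motif, so the core alone did not set Ccr6 apart.

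The 9 genes fell into an abundant set, a low set and an undetected gene. Over the 12 samples the mean level was 126 CPM for Cxcr3, 71.2 CPM for Cxcr4 and 42.9 CPM for Cxcr5. Ccr6 followed with a mean of 17.3 CPM, and was the detected receptor whose group means differed most in fold. The means of Cxcr6 (4.49 CPM), Ccr2 (3.52 CPM), Ccr9 (2.82 CPM) and Ccr4 (0.940 CPM) were lower. Divided by the summed exon length of each gene, the levels kept this order (73.1 CPM per kb for Cxcr3, 39.4 for Cxcr4, 12.9 for Cxcr5, 7.46 for Ccr6, 2.33 for Cxcr6 and 0.521 for Ccr2), except that Ccr4 (0.304 CPM per kb) stood above Ccr9 (0.275 CPM per kb). Since the libraries were made from the 3′ ends of transcripts, reads are not expected to scale with gene length. The undivided levels are therefore the ones to read, and the place of Ccr4 above Ccr9 came from the division (3093 and 10260 exon bases).

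Ccr8, the receptor for Ccl1 and a marker of some regulatory and Th2 cells, had 0 reads in 12 of 12 samples. A count of 0 over all libraries allows a level of up to 0.0129 CPM (3 reads of the summed total, counting error only). Ccr4, the receptor for Ccl17 and Ccl22, was near zero, with 0 reads in 6 of 12 samples and 20 to 49 reads in the other 6. Ccr4 was present in 1 isotype sample (1.27 CPM), 2 anti-Lag3 samples (2.38 and 1.42 CPM), 1 anti-PD-L1 sample (2.75 CPM) and 2 CB samples (1.44 and 2.03 CPM), so the groups overlapped fully. Ccr9 had 0 reads in 1 isotype and 1 anti-PD-L1 sample and 1 read in 1 CB sample, and reached 6.50 CPM in another CB sample. It ranged from 0 to 5.24 CPM in isotype, 1.31 to 4.40 CPM with anti-Lag3 and 0 to 5.14 CPM with anti-PD-L1, so its groups overlapped as well. Of the 108 values that the 9 genes gave, 20 were 0, 2 lay between 1 and 19 reads, and 86 were 20 reads or more. The 0 values came from Ccr8 (12), Ccr4 (6) and Ccr9 (2), and the low receptors Ccr2 and Cxcr6 had none. Libraries were amplified by PCR with no molecular identifiers stated, and reads of low receptors are not independent molecules.

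**Figure D1:**
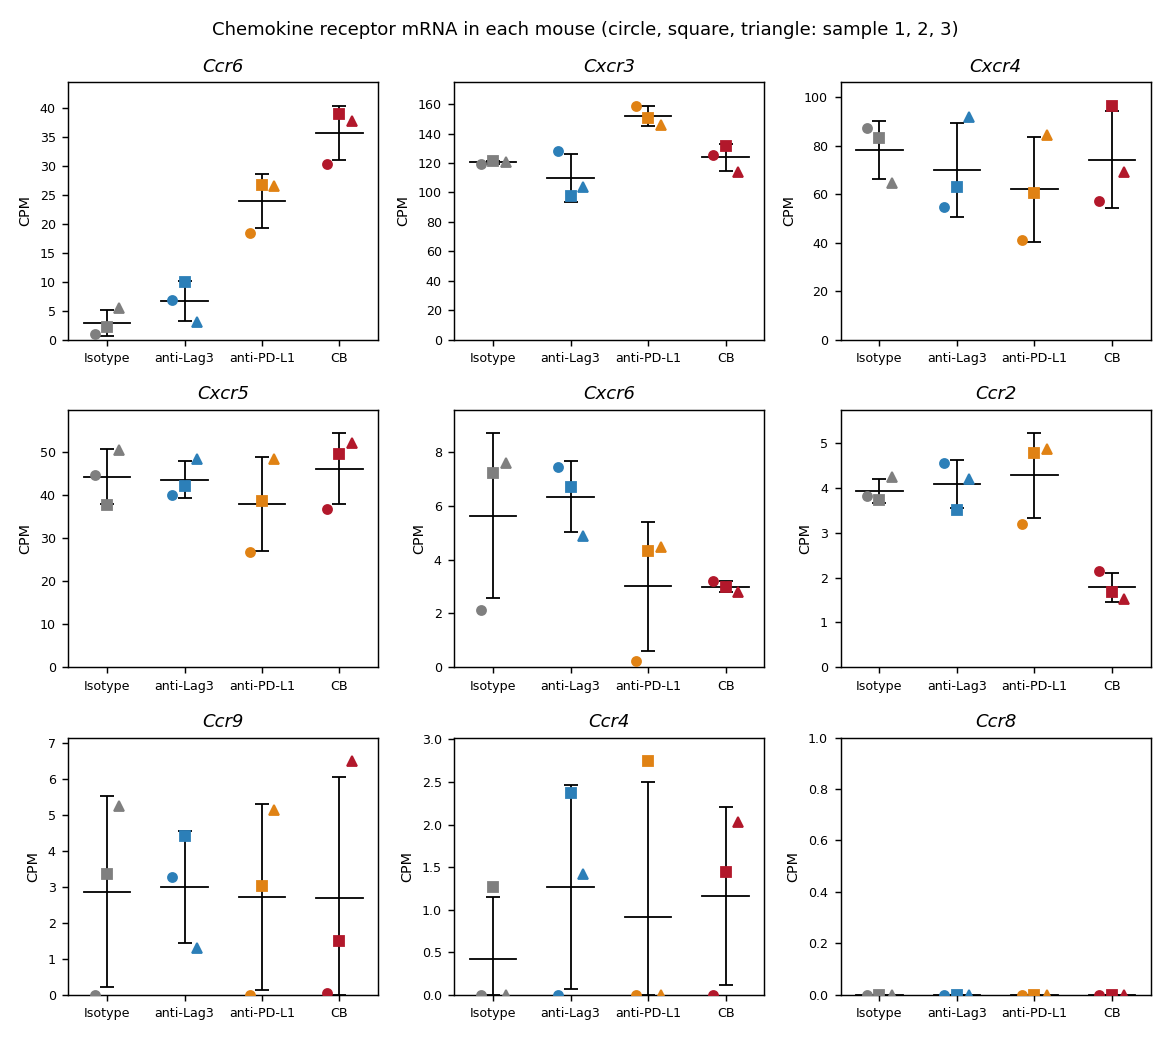
Levels of the 9 receptor genes in CPM (y axis, linear, each panel from 0) in every sample of the 4 groups (x axis). Points are mice, horizontal lines are group means and bars are ± 1 SD (n = 3), cut off at 0 where they would fall below it. Ccr6 sat at 1.01 to 5.45 CPM in isotype and at 30.3 to 39.1 CPM in CB samples, whereas Ccr8 stayed at 0 in all 12.

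Ccr6 was the only 1 of the 8 receptor genes tested that passed the test in any comparison. Its level was 1.01, 2.22 and 5.45 CPM in isotype samples 1 to 3 (20, 35 and 103 reads). It was 6.78, 9.997 and 3.10 CPM with anti-Lag3, and 18.5, 26.8 and 26.5 CPM with anti-PD-L1. In CB samples it was 30.3, 39.1 and 37.8 CPM (579, 813 and 819 reads). The isotype and anti-Lag3 samples overlapped, the anti-PD-L1 samples all stood above both, and the CB samples all stood above the anti-PD-L1 samples. The group means were 2.89 ± 2.30, 6.63 ± 3.45, 24.0 ± 4.70 and 35.7 ± 4.72 CPM (SD, n = 3) for isotype, anti-Lag3, anti-PD-L1 and CB.

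Differences were tested with edgeR's quasi-likelihood test across 15138 genes, with p-values adjusted by the Benjamini-Hochberg method and 0.05 as the threshold. Between CB and isotype, Ccr6 rose by a log2 fold change of 3.62 ± 0.42 (SE), a fold change of 12.3 with a 95% interval from 6.76 to 22.45 (adjusted p = 1.66e-05). It was the 1 receptor called of 8 tested, beside 4.29% of all genes tested. Between anti-PD-L1 and isotype, Ccr6 rose by 3.05 ± 0.42 on the log2 scale (fold change 8.26, adjusted p = 0.00425), again the only receptor called of 8, where 0.0330% of all genes passed. This call was lost without isotype replicate 2 (log2 fold change 2.89, adjusted p = 0.0653). These 2 comparisons share the isotype samples. Isotype replicate 3 held most Ccr6 of its group, and without it the log2 fold change was 4.48 for CB and 3.91 for anti-PD-L1, both called.

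Anti-Lag3 alone gave a log2 difference in Ccr6 from isotype of 1.19 ± 0.43 (95% interval 0.31 to 2.08), which did not pass (adjusted p = 0.805). Leaving out 1 sample moved this value between 0.77 (without anti-Lag3 replicate 2) and 2.05 (without isotype replicate 3), and it passed in none of these fits. No receptor and 0% of all genes passed in that comparison by edgeR, against 788 genes at an unadjusted p under 0.05, 9 genes called by DESeq2 and no receptor called by either tool. CB exceeded anti-Lag3 in Ccr6 by a log2 fold change of 2.43 ± 0.41 (fold change 5.38, adjusted p = 0.00319), and 0.694% of all genes were called there. Between anti-PD-L1 and anti-Lag3 the Ccr6 difference was 1.85 ± 0.41 on the log2 scale (adjusted p = 0.802). That comparison called 0% of genes (710 at an unadjusted p under 0.05, 10 by DESeq2), and Ccr6 passed there (adjusted p = 1.91e-04) only when no filter on low counts was set. Between CB and anti-PD-L1 it was 0.58 ± 0.40, with a 95% interval from -0.25 to 1.40 (adjusted p = 0.656), although the samples did not overlap, and 0.370% of genes passed.

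**Figure D2:**
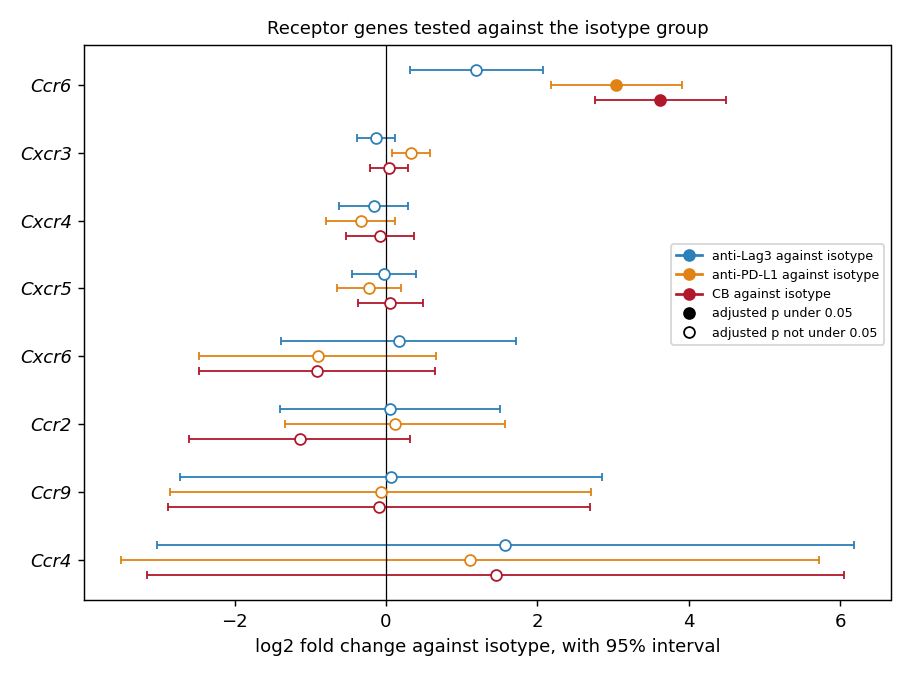
Log2 fold changes of the 8 receptor genes tested (y axis) against isotype (x axis) with 95% intervals, for anti-Lag3 (blue), anti-PD-L1 (orange) and CB (red). Filled points passed an adjusted p of 0.05, which only Ccr6 did, with anti-PD-L1 (3.05) and with CB (3.62), and all 3 comparisons share the isotype samples.

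Averaged over anti-Lag3 status, anti-PD-L1 raised Ccr6 by 2.74 ± 0.29 on the log2 scale (95% interval 2.14 to 3.34, adjusted p = 1.62e-05), in a contrast that called 1.91% of genes. The 6 samples that received anti-PD-L1 held at least 18.5 CPM, and the 6 that did not held at most 9.997 CPM. Averaged over anti-PD-L1 status, the anti-Lag3 difference was 0.89 ± 0.29 (95% interval 0.28 to 1.49), and its adjusted p of 0.210 missed the threshold in a contrast that called 0.502% of genes. Without isotype replicate 3 this difference was 1.32 and passed (adjusted p = 0.0229). The interaction of the antibodies on the log2 scale was -0.62 ± 0.59 (95% interval -1.82 to 0.59, adjusted p = 1.000), where 0% of genes passed by edgeR (898 at an unadjusted p under 0.05, 5 by DESeq2). It was -1.48 without isotype replicate 3 and -0.19 without anti-Lag3 replicate 2, and passed in neither fit. On the CPM scale, the CB mean of 35.7 CPM stood beside 27.7 CPM for isotype plus both single differences, an excess of 8.04 ± 4.53 CPM (SE), and beside 54.9 CPM for isotype times both single ratios.

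Ccr6 took up a larger share of receptor reads in the groups that received anti-PD-L1. Of the reads on the 9 genes, it held 0.390% to 2.11% in isotype samples, 1.197% to 4.35% with anti-Lag3, 7.45% to 9.19% with anti-PD-L1 and 11.9% to 13.2% in CB. Cxcr3, Cxcr4 and Cxcr5 together held 91.3% to 97.3% in isotype and 82.3% to 86.0% in CB samples. The summed level of the 9 receptors was 258 to 260 CPM in isotype and 255 to 324 CPM in CB samples, so the 2 groups overlapped.

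**Figure D3:**
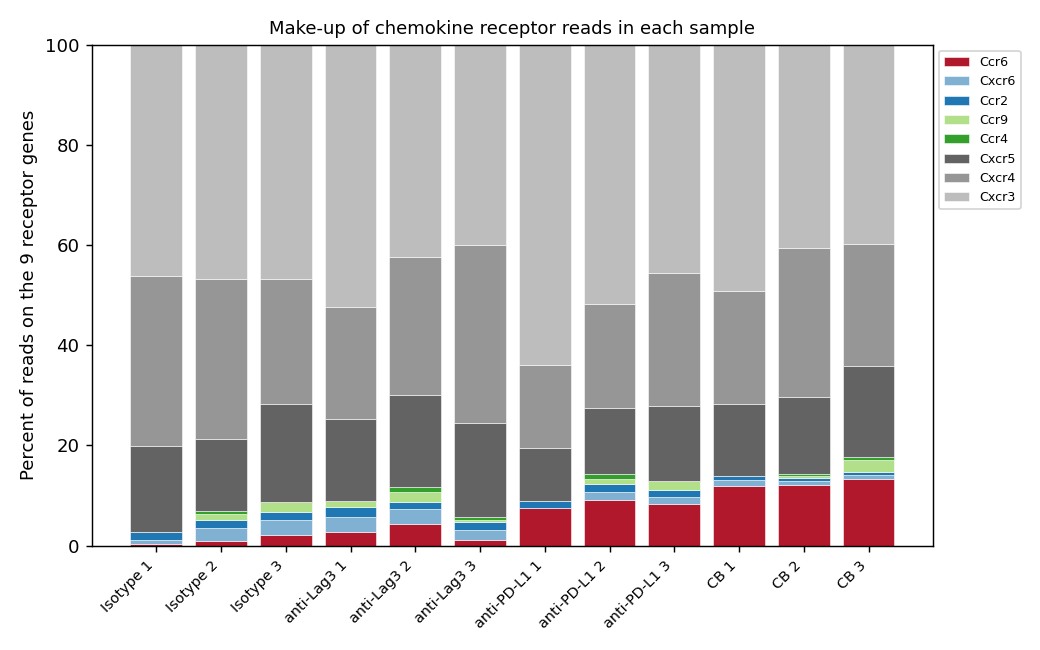
Share of each receptor gene in the reads on the 9 genes (y axis, percent) for each of the 12 samples (x axis), with Ccr8 absent because it had 0 reads. The Ccr6 share was at most 2.11% in isotype samples and at least 11.9% in CB samples.

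Set beside the other receptors within each sample, Ccr6 was higher in CB than in isotype relative to each of them. The log2 ratio of Ccr6 to Cxcr5 (each level plus 0.5 CPM) was -3.94 ± 0.91 in isotype and -0.35 ± 0.10 in CB samples (SD, n = 3). To Cxcr3 it was -5.38 ± 0.99 and -1.78 ± 0.23, and to Ccr2 it was -0.61 ± 0.93 and 3.99 ± 0.39. The ratio of Ccr6 to every 1 of the 7 other detected receptors was higher in all CB than in all isotype samples with that offset and with an offset of 1 CPM, and to 5 of the 7 with an offset of 0.1 CPM. For anti-Lag3 against isotype this held for 0 of 7 at each offset. All 7 ratios share the Ccr6 level, so they restate its difference and are not 7 separate results. Ccr6 alone did not overlap between CB and isotype, as was so for 20.0% of all genes tested.

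Cxcr3, which binds Cxcl9, Cxcl10 and Cxcl11, was the most abundant receptor transcript and did not pass the test. It held 119, 122 and 120 CPM in isotype samples and 128, 97.5 and 104 CPM with anti-Lag3. With anti-PD-L1 it held 159, 151 and 146 CPM, and in CB samples 126, 132 and 114 CPM. All anti-PD-L1 samples stood above those of each other group, and the other 3 groups overlapped one another. Cxcr3 and Ccr6 were the receptors without overlap between anti-PD-L1 and isotype, beside 11.8% of all genes, and between anti-Lag3 and isotype no receptor lacked overlap, beside 10.1%. The log2 difference of anti-PD-L1 from isotype was 0.34 ± 0.12 (adjusted p = 0.492) and that of CB from isotype 0.04 ± 0.12, with a 95% interval from -0.21 to 0.29. From anti-PD-L1 to CB it was -0.30 ± 0.12 (adjusted p = 0.448).

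Cxcr4, the receptor for Cxcl12, and Cxcr5, the receptor for Cxcl13, overlapped between all groups. Cxcr4 ranged from 64.6 to 87.3 CPM in isotype, 54.9 to 92.0 CPM with anti-Lag3, 41.2 to 84.4 CPM with anti-PD-L1 and 57.4 to 96.5 CPM in CB samples. Its log2 difference between CB and isotype was -0.08, with a 95% interval from -0.53 to 0.38. Cxcr5 ranged from 37.6 to 50.4 CPM in isotype, 40.03 to 48.3 CPM with anti-Lag3, 26.6 to 48.3 CPM with anti-PD-L1 and 36.7 to 52.1 CPM in CB samples. For Cxcr5 the same difference was 0.06 (95% interval -0.37 to 0.49). These intervals leave out changes of the size seen for Ccr6. Cxcr5 shares 110 exon bases with Bcl9l on the opposite strand, and because the strand setting of the counting is not stated, reads there cannot be told apart. Ccr9 shares 269 exon bases with Gm17200 on the same strand. On the opposite strand it shares 1932 with AC165425.1 and 22 with Slc6a20a. How far this touched the Ccr9 counts was not tested.

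Ccr2, the receptor for Ccl2 that is also known from monocytes, was lowest in CB. It held 3.82, 3.74 and 4.24 CPM in isotype samples, 4.55, 3.51 and 4.20 CPM with anti-Lag3, and 3.19, 4.77 and 4.87 CPM with anti-PD-L1. In CB samples it held 2.15, 1.68 and 1.52 CPM (41, 35 and 33 reads). Each CB sample stood below all 9 samples of the other groups, and those groups overlapped one another. The test did not call the difference, as the log2 value was -1.14 ± 0.71 against isotype (95% interval -2.60 to 0.32, adjusted p = 0.460), -1.26 ± 0.71 against anti-PD-L1 (adjusted p = 0.561) and -1.19 ± 0.71 against anti-Lag3 (adjusted p = 0.578). Ccr2 and Ccr6 were the 2 of 8 receptors whose CB and isotype samples did not overlap, beside 20.0% of all genes tested. Between CB and anti-PD-L1 the samples of Ccr6, Ccr2 and Cxcr3 did not overlap (12.7% of all genes), and between CB and anti-Lag3 those of Ccr6, Ccr2 and Cxcr6 (14.8%). Myeloid and dendritic cell markers (12 listed, 10 with any read, Cd14 and Xcr1 at 0) summed to 10.6 to 12.8 CPM in isotype, 8.25 to 11.8 CPM with anti-Lag3, 19.7 to 23.7 CPM with anti-PD-L1 and 5.97 to 11.5 CPM in CB samples. Their part in the Ccr2 levels was not tested.

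Cxcr6, the receptor for Cxcl16, lay below 8 CPM in all samples. It held 2.11, 7.22 and 7.57 CPM in isotype samples and 7.44, 6.68 and 4.88 CPM with anti-Lag3. With anti-PD-L1 it held 0.232, 4.32 and 4.46 CPM, and in CB samples 3.19, 2.98 and 2.81 CPM. All samples with anti-PD-L1, alone or in CB, stood below all anti-Lag3 samples, while the isotype group overlapped each of them. Between anti-PD-L1 and anti-Lag3, Cxcr6, Cxcr3 and Ccr6 did not overlap, beside 8.70% of all genes. The log2 difference of CB from isotype was -0.91 ± 0.76 (95% interval -2.47 to 0.65, adjusted p = 0.642). For Ccr9 it was -0.09 (95% interval -2.88 to 2.69) and for Ccr4 1.45 (95% interval -3.15 to 6.06), intervals that hold changes of many-fold in either direction. Isotype replicate 2 was the only isotype sample with Ccr4 reads, and without it the fitted Ccr4 difference was 7.52 (adjusted p = 0.362), a value that rests on a group at 0 and is no measure of size. The log2 changes of the 8 receptors from isotype to CB had a median of -0.02, beside 0.00 over all genes tested.

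B cells also express Ccr6, and B cell markers were read beside it. Of 12 listed markers, those other than Ighm summed to 12.5 to 32.2 CPM in isotype, 19.8 to 36.1 CPM with anti-Lag3, 16.1 to 41.1 CPM with anti-PD-L1 and 8.64 to 33.6 CPM in CB samples, ranges that overlapped. Ighm lay between 323 and 412 CPM, and Cd79a reached at most 1.11 CPM. No listed B cell marker passed the test between CB and isotype, and their part in the Ccr6 levels was not tested.

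The 10 genes whose pattern over the 12 samples was most like that of Ccr6 were found by the root-mean-square difference of z-scores of log2 CPM among the 10447 genes whose mean count reached 30. They were Luc7l (0.287), Gm9892 (0.375), Fabp5 (0.376), Traf2 (0.387), Ddt (0.404), Psmc5 (0.420), 3110082I17Rik (0.421), Grwd1 (0.424), Mrpl20 (0.429) and Bysl (0.430), against a median of 1.35 over all genes compared. Because they were chosen for this pattern, a higher level in CB than in isotype was part of the choice. The z-scores leave out its size, as the log2 changes ran from 0.37 (Mrpl20) to 2.01 (Gm9892), beside 3.62 for Ccr6. Fabp5, a fatty acid-binding protein, had a mean of 18.5 CPM in isotype and 40.5 CPM in CB samples. Traf2, an adaptor of tumour necrosis factor receptors, stood at 12.8 CPM and 26.8 CPM. Of the other receptors, Cxcr3 came closest at 1.02 and Ccr2 was farthest at 1.67.

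Further genes of chemokine signalling were read from lists of names. Of 13 other receptor genes, 5 had no read and 4 had enough reads to be tested, and 0 passed between CB and isotype. Of 21 chemokine ligand genes, 8 had no read, among them Ccl20, the ligand of Ccr6, and 9 were tested with 0 passing. All 20 listed genes of signal transduction downstream of the receptors were tested, and 0 rose and 5 fell between CB and isotype, where 2.33% of all genes tested rose and 1.96% fell. Their median log2 change was -0.27, beside 0.00 over all genes tested. The 5 were Gnb2, a G protein beta subunit (-0.59 ± 0.10, adjusted p = 7.72e-04), the small GTPase Rac2 (-0.44 ± 0.08, adjusted p = 0.00190), the kinase Stk4 (-0.42 ± 0.10, adjusted p = 0.0156), the G alpha-i subunit Gnai2 (-0.31 ± 0.08, adjusted p = 0.0294) and Cdc42, a small GTPase of cell polarity (-0.31 ± 0.08, adjusted p = 0.0295). Gnb2 fell from a mean of 253 ± 15.98 CPM in isotype to 168 ± 2.21 CPM in CB samples (SD, n = 3), and Rac2 from 860 ± 71.0 CPM to 634 ± 29.8 CPM, and neither gene's samples overlapped.

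Receptor desensitisation runs through G protein-coupled receptor kinases, arrestins and regulators of G protein signalling. Of 13 such genes tested, 0 rose and 2 fell between CB and isotype, where 2.33% of all genes tested rose and 1.96% fell. The median log2 change of the 13 was -0.32, beside 0.00 over all genes tested and -0.20 over the listed CD4+ T cell markers. The 2 that fell were the receptor kinase Grk6 (-0.48 ± 0.12, adjusted p = 0.0140) and the regulator Rgs2 (-0.75 ± 0.19, adjusted p = 0.0220). Grk6 fell from 199 ± 19.95 CPM to 143 ± 12.9 CPM and Rgs2 from 137 ± 42.0 CPM to 81.4 ± 20.01 CPM (SD, n = 3). These counts depended on single libraries, since without isotype replicate 2 only 2 of the transduction and 1 of the desensitisation genes passed. In anti-PD-L1 against isotype, anti-Lag3 against isotype and each of the comparisons between antibody groups, 0 genes of either list passed. The share of all genes tested that passed in these comparisons was 0% to 0.694%. In anti-PD-L1 averaged over anti-Lag3 status, Gnb2 and Rgs2 were called, both lower with anti-PD-L1, beside 1.91% of all genes tested. Summed levels of some markers of other cells also differed between CB and isotype. Erythroid and platelet markers (10 listed, all with reads) summed to 242 to 451 CPM in isotype and 150 to 198 CPM in CB samples, without overlap. Of these, the haemoglobin chains Hbb-bs (-0.75, adjusted p = 0.00509) and Hbb-bt (-0.99, adjusted p = 0.00363) were called. Haemoglobin chains made up most of the sum, with 4063 to 31389 reads each, where no other gene of that list held more than 485. The platelet genes held at most 123 reads each and none was called. Among them, Ppbp (0.54) and Itga2b (0.61) lay above 0, and the fitted values were 0 for Pf4 and -5.80 for Gp9. Over the 12 samples Pf4 held 55 reads and Gp9 47. Of the 10 listed genes, 9 had reads in isotype and 8 in CB samples. The fitted values of Pf4 and Gp9 are thus no measure of direction or size. CD8 T cell and natural killer cell markers (8 listed, Zbtb16 at 0) summed to 46.2 to 49.9 CPM and 31.3 to 39.96 CPM, also without overlap, and none of them was called. Most of this sum was Cd8b1, with 7875 reads over the 12 samples, where no other gene of that list held more than 632. Of the 7 genes of that list tested, 3 had a log2 change above 0. The part of these cells in the Ccr6 and pathway values was not tested.

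**Figure D4:**
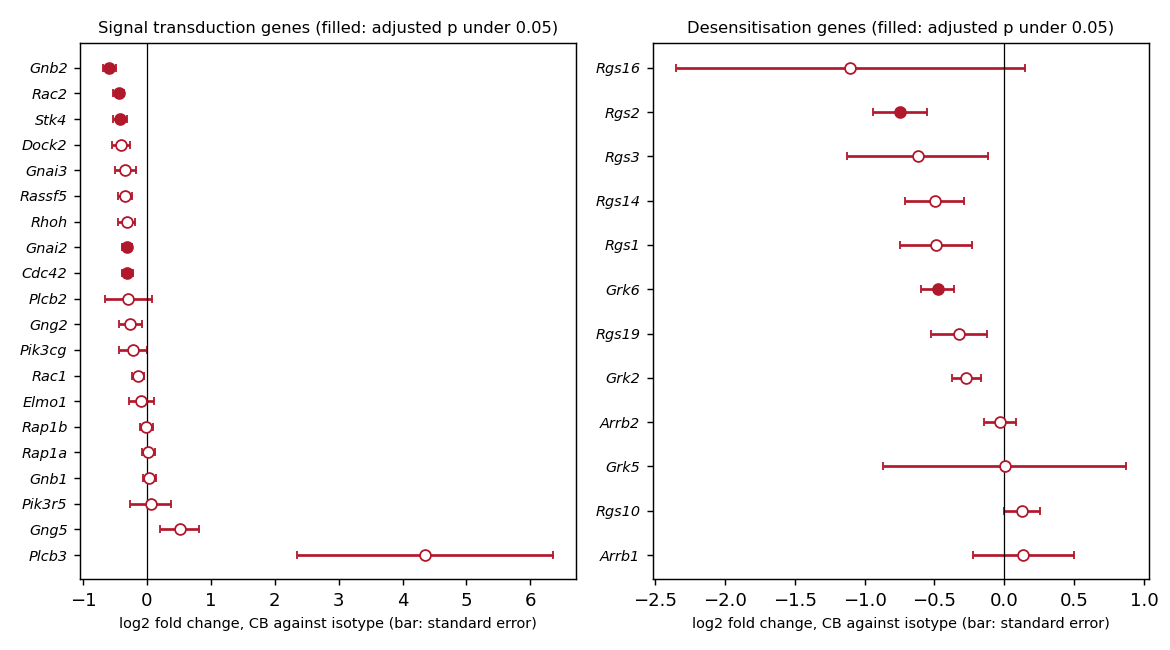
Log2 fold changes between CB and isotype (x axis) of the signal transduction genes (left) and the desensitisation genes (right) with standard errors. Filled points passed an adjusted p of 0.05, which were 5 of 20 on the left and 2 of 13 on the right, all below 0, and Rgs18, which had no standard error, is not drawn.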

How the data were processed

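Sorted CD4+ Nr4a3-Blue+Red+ splenocytes from 12 mice (3 per group) were profiled by QuantSeq 3′ mRNA sequencing. The authors trimmed reads with Cutadapt 1.18, mapped them to GRCm38 with STAR 2.6.1a and counted them on genes with featureCounts 1.6.4, and the deposited count table holds raw read counts. The deposited rlog table was not used. The annotation release and the strand setting are not given in the sources used here. Counts on 56691 mouse genes were used, and 114 spike-in rows (0.719% to 1.29% of reads) were left out. Symbols and coordinates come from a GRCm38 annotation that holds 52073 of these genes.

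Differential expression was tested with edgeR 4.0.16 in R 4.3.3 (TMM, genes with at least 30 reads in sum, 1 quasi-likelihood fit of 4 group means without covariates, two-sided tests, Benjamini-Hochberg adjustment over 15138 genes), and DESeq2 1.42.0 was an alternative. On simulated counts with 200 changed genes, the CB against isotype test recovered 50% of 2-fold and 75% of 4-fold changes among 14311 genes, with 8 unchanged genes called. Named genes are all 9 receptors, pathway genes past the threshold (at most 6 per list) and the 10 genes most like Ccr6, and the markers set beside a receptor. The receptors and gene lists were chosen with earlier results of these data known. Another receptor gene is not reported here. Libraries of a group differed by more than counting noise, so none was taken as a duplicate. Precision from counts covers counting error only.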

Additional observations from a re-analysis of the deposited data

How the results depend on the processing

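Ccr6 kept its direction and its call between CB and isotype (3.61 to 3.70 on the log2 scale) and between CB and anti-Lag3 under all 9 alternatives and all 12 fits that left out 1 sample, in which its CB to isotype difference ran from 3.21 to 4.48 (highest without isotype replicate 3). The count of receptors called between anti-PD-L1 and isotype ran from 0 to 1 over those 12 fits, and was 0 without isotype replicate 2. For anti-Lag3 averaged over anti-PD-L1 status it also ran from 0 to 1, and was 1 without isotype replicate 3. With no filter on low counts, 1 receptor (Ccr6) was called between anti-PD-L1 and anti-Lag3, and 1 (Ccr6, 0.89, adjusted p = 0.0139) for anti-Lag3 averaged over anti-PD-L1 status, and the cause was not tested. Over its alternatives the adjusted p of Ccr6 between anti-PD-L1 and anti-Lag3 ran from 1.91e-04 to 0.939. The signs of 4 receptors between CB and isotype turned when 1 sample was left out, with log2 ranges of -1.88 (without CB replicate 3) to 0.68 (without isotype replicate 3) for Ccr9, -0.0062 to 0.097 for Cxcr3, -0.31 to 0.080 for Cxcr4 and -0.045 to 0.20 for Cxcr5. Transduction genes called ran from 2 to 5 (2 without isotype replicate 2 or CB replicate 3, 3 without CB replicate 2) and desensitisation genes from 1 to 2 (1 without isotype replicate 1 or 2 or any CB replicate). Against a log2 fold change of 0.2, edgeR called 2 transduction and 0 desensitisation genes. Deviations of same-numbered samples correlated at -0.05 to 0.08 over 18 pairs (median 0.028, beside -0.011 for different numbers). Of the 12 samples, 8 correlated best with their own number. The labels do not say whether these numbers follow the sort batches, and the main fit held no term for them. The replicate block (Ccr6 3.70 between CB and isotype) changed no receptor call, and moved the genes called from 649 to 843 between CB and isotype, from 5 to 23 between anti-PD-L1 and isotype, from 105 to 208 between CB and anti-Lag3 and from 56 to 137 between CB and anti-PD-L1. DESeq2 called 918, 56, 280 and 178 genes in these comparisons. At this depth a count of 0 over all libraries allows up to 0.0129 CPM for Ccr8 (counting error only), and whether more reads would change the 0 values of Ccr4 and Ccr9 was not tested.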
